A study of Gallus gallus with 12 samples.

Results

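The 6 untransfected left otocysts of the series, of 12 otocysts in all, were examined for the genes that the day 3 chicken otocyst expresses and for how far untreated otocysts of different embryos differ. They were chosen by their sample labels alone, without use of any measured value. All embryos were White Leghorn chickens at embryonic day 3, and in each of them the right otic cup had been electroporated 24 h before collection. As a model of the untreated ear, the left otocysts are limited in that their embryos carried an electroporated right ear and were picked for strong fluorescence on that side. Each otocyst was dissected whole and freed of the mesenchyme around it. In 3 embryos (numbers 50, 51 and 52) the right side received a Tol2 construct that codes for mCherry and DNBCAT, a dominant-negative form of β-catenin, and their left sides are called here the DNBCAT left otocysts. In the other 3 embryos (numbers 60, 61 and 62) the right side received a Tol2 construct that codes for mCherry alone, and their left sides are called the mCherry left otocysts. No construct was applied to any of the 6 left otocysts. An otocyst is written as the number of its embryo with L for left or R for right, such as 60L.

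The otocyst is the closed epithelial vesicle from which the inner ear forms. Its cells are patterned along the dorsal to ventral and anterior to posterior axes, neuroblasts leave its ventral wall to form the cochleovestibular ganglion, and prosensory patches are set aside within it. Wnt ligands bind Frizzled receptors and stabilise β-catenin, which then acts with LEF/TCF factors on target genes, and in the ear this pathway is known for dorsal and vestibular identity. Notch receptors are activated by ligands on neighbouring cells and act through RBPJ on HES and HEY genes, and in the ear they are known for restraining neurogenesis and for prosensory specification.

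RNA of each otocyst was made into its own library. The authors deposited estimated counts, which are whole or partial reads assigned to an annotated transcript, and TPM, a transcript's level within its library, which are scaled for transcript length so that genes can be compared with each other. Levels are given here as TPM. Comparisons between otocysts used estimated counts scaled by the TMM method of edgeR, given as CPM, which are counts scaled to the library total. Total estimated counts of the left libraries lay between 13157404 and 15243921, and between 20871 and 21373 transcripts had at least 1 count. Gene names came from the supplementary tables of the study, which pair 827 transcripts with 805 genes, so each gene is represented by 1 transcript and reads on its other transcripts are not included. These tables list transcripts that the authors called changed by Wnt or Notch manipulation, some of them in comparisons that used these left otocysts, so the named genes are not a random sample. The 181 genes described here fall into 18 lists. Of them, 180 passed the filter on low counts for the test between cohorts, and the median level over the 181 genes was 41.7 TPM, against 7.92 TPM over all 19647 transcripts that passed. In bulk samples, fewer cells of a type and less RNA per cell cannot be told apart.

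The left otocysts carried RNA of all 7 otic epithelial markers. SOX10, a factor of the otic vesicle and of neural crest, was at 267, 178 and 289 TPM in the DNBCAT left otocysts and at 350.4, 330.4 and 275 TPM in the mCherry left otocysts. LMX1A, a dorsal otic factor, was at 151, 129 and 162 TPM in the DNBCAT and 145, 172 and 141 TPM in the mCherry left otocysts. SOHO-1, a homeobox gene named for the sensory organs of the chick, lay between 195 and 321.9 TPM, and TBX2 was the scarcest of the 7, between 6.99 and 12.04 TPM. Summed over the 7 markers, the level was between 737 and 1024 TPM in the DNBCAT left otocysts and between 938 and 1016.4 TPM in the mCherry left otocysts, so that the cohorts overlapped.

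Markers of other cells were present too. All 12 markers of periotic mesenchyme had at least 1 TPM in each left otocyst, and none was at 0. Their summed level was between 443 and 601 TPM in the DNBCAT left otocysts and between 431 and 559.6 TPM in the mCherry left otocysts. LUM, a small proteoglycan of connective tissue, was at 149, 170.1 and 97.6 TPM in the DNBCAT and 126, 139 and 103 TPM in the mCherry left otocysts. DCN, another small proteoglycan, was highest in 50L (39.2 TPM) and lowest in 62L (10.5 TPM), while the tendon factor SCX and the smooth muscle gene TAGLN had highest values of 5.73 and 2.36 TPM. The skeletal actin ACTA1 was between 43.6 and 57.9 TPM, and FLT4, a receptor of endothelium, between 3.38 and 10.4 TPM. The neuroblast markers NEUROD1, NHLH1, EBF2 and EBF3 and the broadly used STMN1 were all present, as described with the neural genes.

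**Figure D1:**
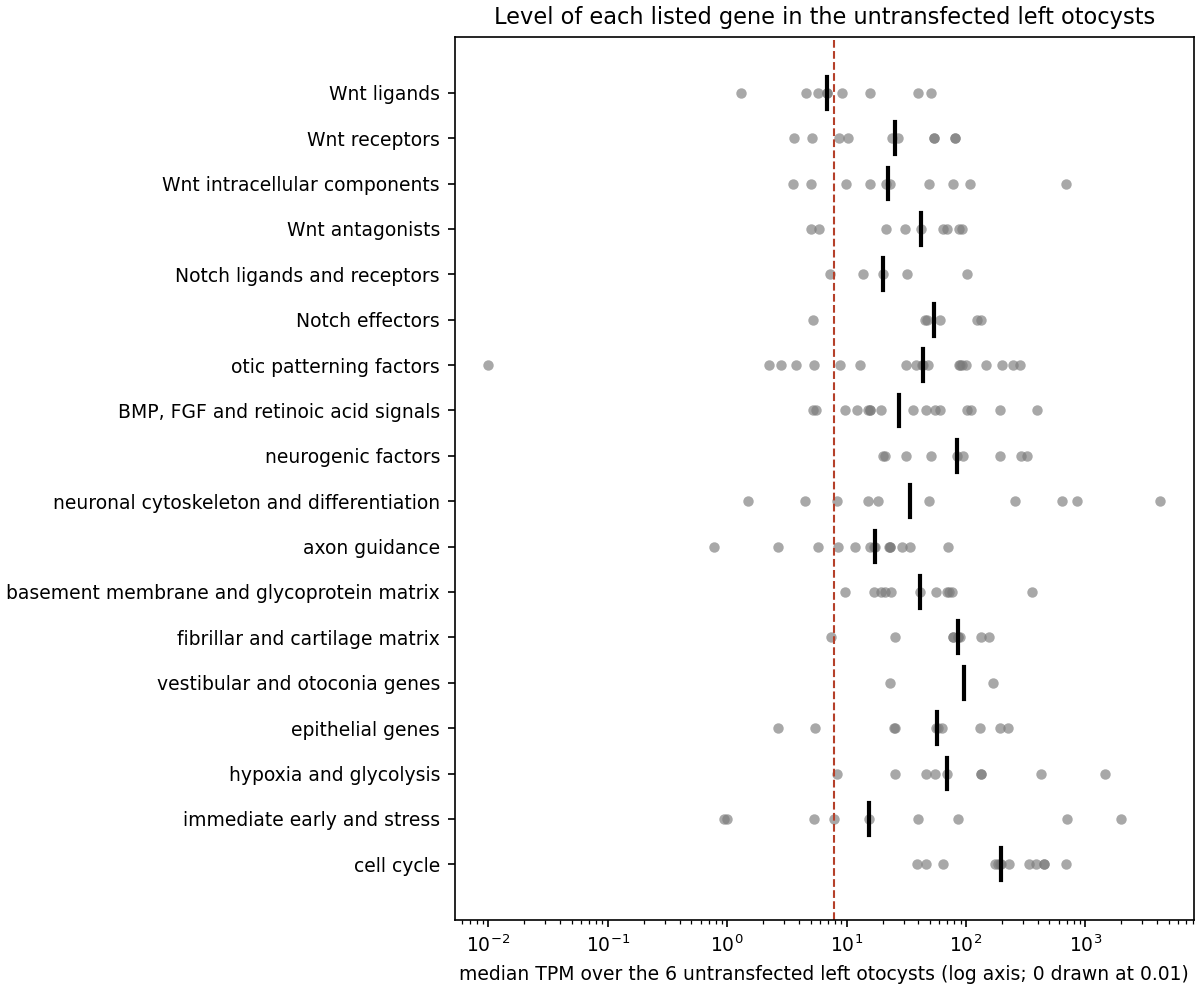
Each grey point is the median TPM (log axis) of 1 listed gene over the 6 untransfected left otocysts, black bars are list medians, and the dashed line is the median over the 19647 transcripts tested (7.92 TPM). Cell cycle genes had the highest list median (195 TPM) and Wnt ligands the lowest (6.91 TPM), and the point drawn at 0.01 is LHX5, at 0.

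Wnt ligands were scarce apart from a few. WNT5A, a ligand known mainly for signalling without β-catenin, was the most abundant, at 49.9, 47.7 and 55.3 TPM in the DNBCAT left otocysts and 54.5, 52.5 and 37.7 TPM in the mCherry left otocysts. WNT2B followed, at 35.8, 32.9 and 39.4 TPM in the DNBCAT left otocysts and 42.1, 43.2 and 39.7 TPM in the mCherry left otocysts. WNT3A, a classic activator of β-catenin, varied more, at 20.2, 10.5 and 11.4 TPM in the DNBCAT and 11.7, 19.7 and 29.0 TPM in the mCherry left otocysts. The highest WNT3A value was that of 62L and the lowest that of 51L. The other 6 ligands had medians between 1.30 TPM (WNT6) and 9.23 TPM (WNT9A). WNT4, WNT5B, WNT7B and WNT11 lay within this range, and WNT6 was at 4.58 TPM in 50L but between 1.03 and 1.54 TPM in the other 5 otocysts.

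Among the receptors, FZD2 and FZD7 were the most abundant Frizzled genes, with medians of 80.8 and 81.6 TPM. FZD7 was between 65.3 and 89.4 TPM, a narrow range. FZD1 had a median of 54.1 TPM, LGR4, an R-spondin receptor, of 54.1 TPM, and its relative LGR5 of 26.7 TPM. FZD3, FZD4, FZD6 and FZD9 had medians between 5.14 and 24.2 TPM. FZD10 (ENSGALT00000068771.2) varied most of the 10 receptors, at 0.290, 4.36 and 2.88 TPM in the DNBCAT left otocysts and 10.3, 0.110 and 7.91 TPM in the mCherry left otocysts. It ranged between 2 estimated counts in 61L and 187 in 60L. Each cohort held otocysts with near 0 and with several TPM, so the cohorts overlapped. The right otocysts had 0.185, 1.56 and 4.20 TPM in embryos 50, 51 and 52 and 29.1, 0.495 and 6.55 TPM in embryos 60, 61 and 62, so embryos 50 and 61 were lowest and embryo 60 highest on both sides.

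CTNNB1, which codes for β-catenin, was by far the most abundant Wnt component, at 704, 613 and 669.8 TPM in the DNBCAT left otocysts and 730.1, 784 and 682 TPM in the mCherry left otocysts. The kinase genes CSNK1E and GSK3B had medians of 108 and 78.2 TPM. The scaffold gene AXIN1 had a median of 23.0 TPM and AXIN2, a feedback target of the pathway, of 21.4 TPM. The transcriptional partners of β-catenin were scarcer, with medians of 15.6 TPM for TCF7L2, 9.84 TPM for TCF7L1, 5.05 TPM for TCF7 and 3.55 TPM for LEF1. LEF1 values were 5.46, 5.02 and 2.14 TPM in the DNBCAT and 2.82, 1.98 and 4.28 TPM in the mCherry left otocysts. Wnt antagonists were at higher levels than the ligands, with a list median of 41.7 TPM. SFRP2, APCDD1 and DKK3 had medians of 86.6, 93.5 and 69.9 TPM, SFRP1 one of 63.8 TPM, and NOTUM, an enzyme that inactivates Wnt ligands, one of 41.7 TPM. DKK1 was near the lower end, at 4.61, 3.70 and 3.21 TPM in the DNBCAT and 5.38, 8.17 and 6.78 TPM in the mCherry left otocysts.

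Of the Notch components, LFNG, a glycosyltransferase that modifies Notch receptors, was the most abundant receptor-side gene, with a median of 102 TPM. The ligands JAG2 and DLL1 had medians of 20.01 and 7.30 TPM. NOTCH1 (ENSGALT00000003754.7) was at 28.6, 16.9 and 48.5 TPM in the DNBCAT left otocysts and 66.7, 35.8 and 23.2 TPM in the mCherry left otocysts. NOTCH2 was at 12.8, 7.45 and 23.9 TPM in the DNBCAT and 34.4, 14.8 and 7.68 TPM in the mCherry left otocysts. For both receptors 60L was highest and 52L next, 51L and 62L were the lowest pair, and the cohorts overlapped. HEY1, NRARP, HES4, HES1 and HES5 had medians of 133, 124, 60.8, 45.5 and 46.9 TPM, and RBPJ, the DNA-binding partner of activated Notch, one of 5.22 TPM. HES5 was at 49.4, 44.5 and 34.8 TPM in the DNBCAT and 53.9, 49.6 and 40.5 TPM in the mCherry left otocysts.

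Of the 20 patterning factors, 18 had at least 1 TPM in each left otocyst, and the list median was 43.5 TPM. MSX1, a dorsal otic factor, was at 255, 205 and 191 TPM in the DNBCAT and 188, 195 and 208 TPM in the mCherry left otocysts. DLX5, which marks the dorsal otocyst, was between 94.4 and 118 TPM, and LMX1B between 74.3 and 99.3 TPM. LHX5 was listed at 0 in all left otocysts but 50L (0.292 TPM), and TLX1 had a median of 2.25 TPM. Of the signals, ID2 and ID1, inhibitors of bHLH factors and targets of BMP, had medians of 392 and 193 TPM. BAMBI, a decoy receptor of the BMP pathway, had 111 TPM, FGF10 55.2 TPM, FGF3 15.1 TPM and BMP4 15.7 TPM. The FGF-responsive factors ETV4 and ETV1 had medians of 101 and 46.0 TPM. ALDH1A3, an enzyme of retinoic acid synthesis, had a median of 60.3 TPM with a range between 35.7 and 118 TPM.

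NEUROD1, the factor of delaminating neuroblasts, was at 95.3, 77.7 and 83.6 TPM in the DNBCAT left otocysts and 98.0, 109 and 91.9 TPM in the mCherry left otocysts. SOX11 had a median of 324 TPM, TCF12 of 290.3 TPM and TCF3 of 193.7 TPM, whereas NHLH1, EBF2, EBF3 and PROX1 had medians between 20.3 and 51.0 TPM. STMN1, a regulator of microtubules, had the highest level of all named genes, between 4032 and 4309.7 TPM. After STMN1, the highest named levels were those of ribosomal protein genes (RPL14, RPS25, RPL34, RPL23A, RPL31 and RPS20), the chaperone HSPA8, the mitochondrial gene ND3 and the glycolytic enzyme PGAM1, with medians between 1464 and 2666 TPM. Axon guidance genes had a list median of 17.2 TPM, led by SEMA5B with 70.4 TPM. ROBO2, a Slit receptor, was lowest in that list at 0.771 TPM. RGMA, a repulsive guidance molecule, was at 1.06, 1.79 and 3.57 TPM in the DNBCAT and 10.2, 1.77 and 5.30 TPM in the mCherry left otocysts, with 60L and 62L highest. NOXO1, an organizer of the oxidase needed for otoconia, was at 179, 136 and 110.3 TPM in the DNBCAT and 159, 183 and 187 TPM in the mCherry left otocysts. OTOP1, an otoconia gene, was at 19.9, 24.8 and 14.5 TPM in the DNBCAT and 48.2, 36.8 and 21.3 TPM in the mCherry left otocysts, where only 51L and 62L crossed.

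Matrix genes were abundant and varied between embryos. SPARC, a glycoprotein of basement membranes, was between 271 and 385 TPM. COL2A1 (ENSGALT00000068432.2), the fibrillar collagen of cartilage, which the otic epithelium also makes, was at 134, 54.8 and 243 TPM in the DNBCAT left otocysts and 309.8, 176 and 90.3 TPM in the mCherry left otocysts. COL18A1 (ENSGALT00000077208.2), a collagen of basement membranes, was at 47.9, 19.4 and 93.3 TPM in the DNBCAT and 119, 64.8 and 31.2 TPM in the mCherry left otocysts. LAMC1, a laminin chain, was at 39.6, 14.9 and 59.4 TPM in the DNBCAT and 76.8, 42.4 and 23.6 TPM in the mCherry left otocysts. The order of the otocysts was the same for these 3 genes, with 60L highest, then 52L, 61L, 50L and 62L, and 51L lowest. COL9A1, by contrast, was between 59.9 and 83.9 TPM. Epithelial genes had a list median of 57.3 TPM, with S100A11 at 225 TPM, the gap junction gene GJA1 at 131 TPM and the cadherin gene CDH1 at 25.6 TPM. The immediate early genes EGR1 and ATF3 had medians of 0.945 and 0.998 TPM. Cell cycle genes were high, with PCNA, a sliding clamp of replication, at 681 TPM, and CDK1 and RRM2 at 448 and 452 TPM.

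How far the otocysts of different embryos lay apart was examined first over all transcripts. In a principal component analysis of the 500 most variable transcripts, PC1 held 47.9% and PC2 19.5% of the variance. 60L stood apart on PC1 with a score of 12.8, and 52L, 61L, 50L, 62L and 51L followed with scores of 1.48, -0.938, -2.40, -4.65 and -6.32. The cohort held 17.3% of their sum of squares. Of the 10 ways to divide the otocysts into 3 and 3, 7 gave a share at least as high, so that p = 0.7 (exact permutation test, one-sided), and the smallest p this design allows is 0.1. With an otocyst left out, the share was between 18.3% and 28.6%. It was highest without 62L (p = 0.3, exact permutation test, one-sided). Shares with an otocyst left out are not on the scale of the full share, since any division of fewer otocysts holds more on average. The distance of 2 otocysts was taken as the SD, over 19298 transcripts, of their difference in log2 CPM. Left otocysts of different cohorts had a median distance of 1.10 (range 1.04 to 1.28, 9 pairs), and left otocysts of the same cohort one of 1.13 (range 1.06 to 1.22, 6 pairs). The left and right otocysts of the same embryo had a median distance of 1.003 (range 0.980 to 1.21, 6 pairs), and the highest of these was that of embryo 51, whose right otocyst had 31.5% of its TPM in 20 transcripts against between 10.8% and 12.7% in the other 11 otocysts. In the other 5 embryos the untransfected otocyst was closer to its transfected counterpart, at 0.980 to 1.03, than to any other untransfected otocyst, at 1.04 or more. With at least 10 estimated counts in every library, the medians were 0.4698 between cohorts, 0.496 within a cohort and 0.398 within an embryo, so that transcripts of low count made up much of each distance. With that filter 50L was closer to 61L, of another embryo and cohort (0.427), than to 50R (0.445). Pairs share otocysts, so these distances were not tested.

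**Figure D2:**
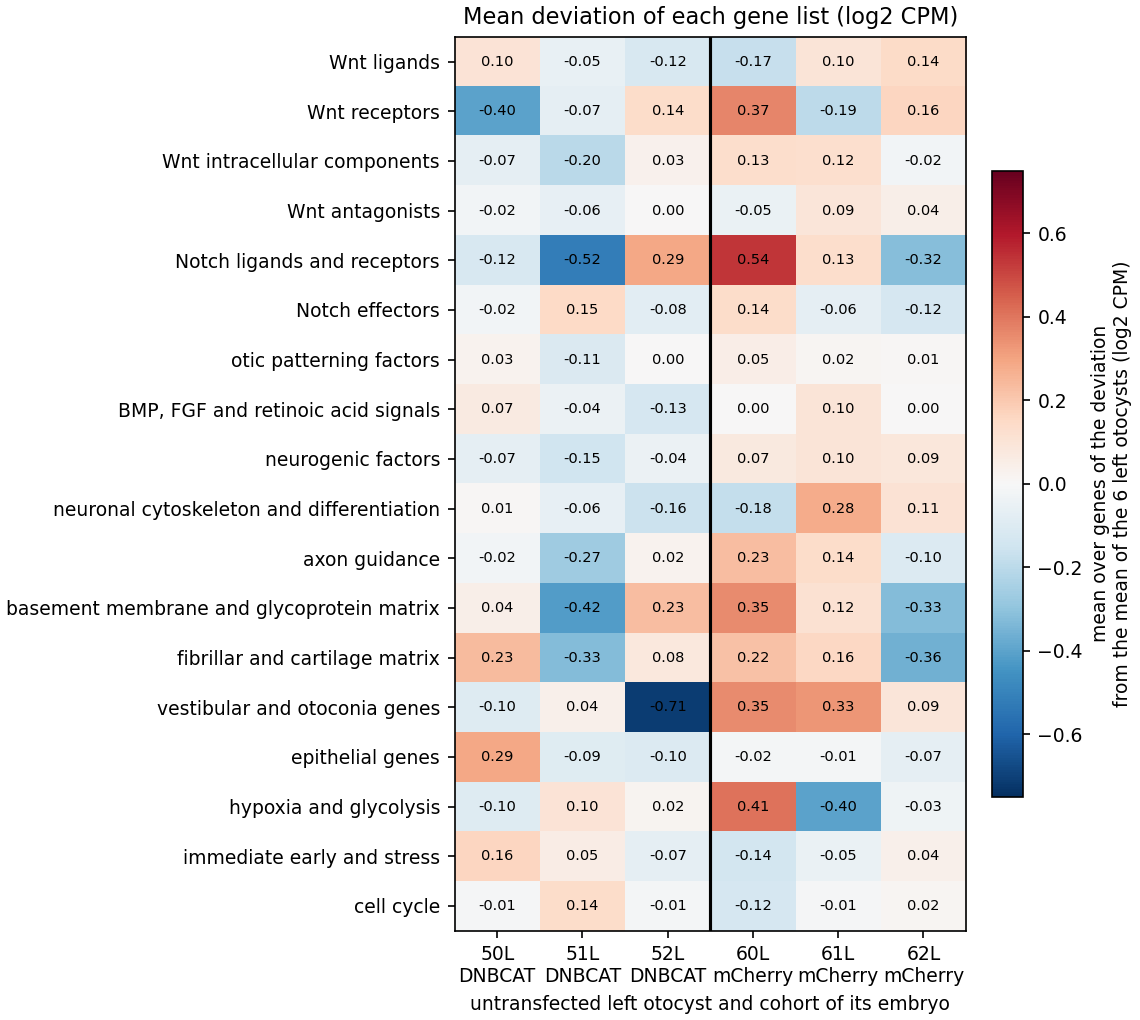
Each cell is the mean over the genes of a list (those with a median of at least 50 counts) of the deviation of that left otocyst from the mean of the 6 (log2 CPM), with DNBCAT embryos left of the black line and mCherry embryos right of it. Notch ligands and receptors and the basement membrane list were highest in 60L (0.54 and 0.35) and lowest in 51L (-0.52 and -0.42), while the means of otic patterning factors stayed within -0.11 and 0.05. Opposite shifts of single genes cancel in such a mean. The median ratio of the highest to the lowest left otocyst was 1.52 for the patterning factors, against 1.54 over all tested transcripts with that many counts.

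The lists differed in how much they varied. Over the 13308 tested transcripts with a median of at least 50 counts, the median ratio of the highest to the lowest of the 6 left otocysts was 1.54. Among the longest transcripts, the highest of 5 length classes, it was 1.76. The 2 vestibular and otoconia genes had a median ratio of 2.53, fibrillar and cartilage matrix genes one of 2.03, Wnt antagonists one of 1.78 and axon guidance genes one of 1.70, whereas neurogenic factors had 1.36, Wnt ligands 1.37 and cell cycle genes 1.38. Of the named genes with at least 50 counts, those with the smallest ratios were chaperone and secretory pathway genes (HSP90B1 with 1.06, PDIA6 with 1.09), cell cycle genes (CCND1 with 1.09, MCM2 with 1.09, MCM6 with 1.10), and AMD1, NCL, ARID4A, LEMD2 and CD164 (1.10). Among the 15 largest ratios were ANXA2 (6.18), an annexin of epithelial membranes, GTSF1 (6.12), LRP4 (5.13), FBN3 (5.10) and COL18A1 (5.05). The remaining 10 are transcripts that were at or near 0 in at least 1 left otocyst.

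Several matrix and receptor genes shared their highest and lowest otocyst in CPM. Of 157 listed genes with a mean of at least 100 counts, 27 (17.2%) were highest in 60L and lowest in 51L. Of all 11260 such transcripts, 12.6% had these ends. The full order of COL2A1 was found for 10 of the 157, against 435 of the 11260. The 27 included the matrix genes COL2A1, COL18A1, COL5A2, LAMC1, LAMA1, LAMA4 and THBS1, the receptors NOTCH1, FZD3 and FZD4, the guidance genes SEMA3A, SEMA5B, SEMA6B and NTN3, the otic factor SOX10 and the chromatin remodeller CHD7. The difference between 60L and 51L was 2.34 on the log2 CPM scale for COL18A1, 2.21 for COL2A1, 2.08 for LAMC1, 1.91 for NOTCH2 and 1.69 for NOTCH1. In CPM, NOTCH2 was lowest in 62L, just below 51L. In CPM, other matrix and receptor genes did not have these ends, among them COL14A1 and COL1A2 (highest in 50L), COL9A1 and FBLN2 (highest in 61L) and FZD6 (lowest in 60L). In TPM of the right otocysts, embryo 60 was highest for each of the 27 genes but AXIN1, and embryo 51 was lowest for each of them, although 51R is the library with 31.5% of its TPM in 20 transcripts, which lowers the TPM of all its other transcripts. Of 734 named genes with a median of at least 50 counts, 47.1% had the same embryo highest in TPM on both sides. Genes outside this order could have the same ends on the right. FZD2 was highest of the left otocysts in 51L (96.9 TPM) and lowest of the right ones in 51R (44.4 TPM). MSX1 was highest on the left in 50L (255 TPM) and on the right in 60R (246 TPM). COL2A1 was at 93.5, 18.6 and 219.9 TPM in the right otocysts of embryos 50, 51 and 52 and at 285, 154 and 61.9 TPM in those of embryos 60, 61 and 62, and NOTCH1 was at 25.1, 10.2 and 46.9 TPM in the right otocysts of the DNBCAT embryos and at 73.6, 31.8 and 21.5 TPM in those of the mCherry embryos. The order was noticed in the data and was not tested.

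Transcript length moved with this order. The 11260 transcripts were divided by annotated length into 5 classes of equal size. In the longest class, with a median length of 4640.0 bases, the median deviation from the mean of the 6 left otocysts was 0.25 (log2 CPM) in 60L, 0.13 in 52L, 0.07 in 61L, 0.02 in 50L, -0.14 in 62L and -0.26 in 51L, the order of PC1. In the shortest class, with a median of 1109 bases, the signs were reversed for 60L (-0.16) and 51L (0.19). Across transcripts, which are not independent replicates, Spearman's rho between length and deviation was 0.420 in 60L and -0.447 in 51L, and 0.455 in 60R and -0.484 in 51R. The transcript of NOTCH1 is 9865 bases long, that of COL2A1 4263 and that of COL18A1 4023. The median difference between 60L and 51L in the longest class was 0.52, and 31.5% of that class were highest in 60L and lowest in 51L. COL18A1, COL2A1, LAMC1, NOTCH2 and NOTCH1 differed by more than the 90th percentile of that class (1.54), while LAMA1 (0.93), CHD7 (0.59) and FZD3 (0.77) did not. The former were named for their large differences, so their place above that percentile is no separate result. Of the 157 listed genes, 13 exceeded the 90th percentile of their own length class, no more than that percentile allows by definition. The part of transcript length in the differences between embryos was not tested.

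**Figure D3:**
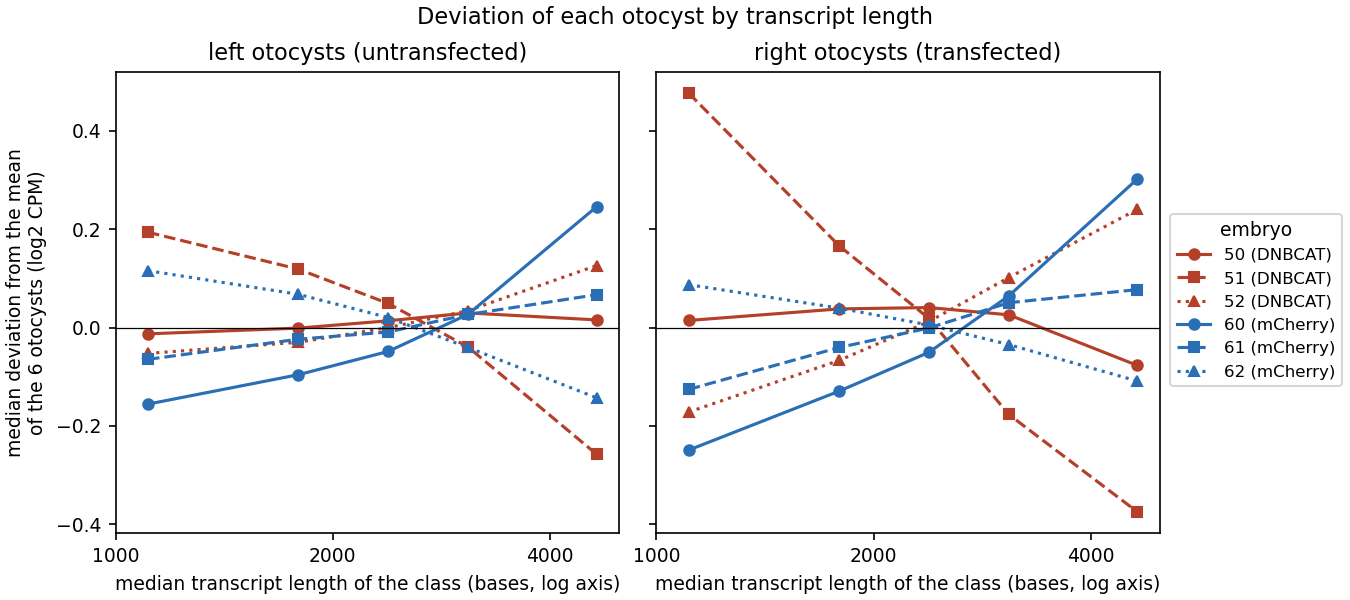
The median deviation (log2 CPM) of each otocyst from the mean of the 6 otocysts of its side is plotted against the median transcript length (bases, log axis) of 5 length classes, for left and right otocysts, with DNBCAT embryos in red and mCherry embryos in blue. Long transcripts were high in embryo 60 and low in embryo 51 on both sides (0.25 and -0.26 on the left).

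Other genes varied outside this order. ID2 (ENSGALT00000079911.3) was at 447, 346 and 365 TPM in the DNBCAT left otocysts and 180.0, 418 and 446 TPM in the mCherry left otocysts, so that 60L had the lowest value. The right otocysts of embryos 50, 51 and 52 had 425, 198 and 379 TPM and those of embryos 60, 61 and 62 had 197, 441 and 406 TPM, where 60R had the lowest value and 51R the next. LDHA, the lactate dehydrogenase induced by hypoxia, was at 81.1, 159 and 133 TPM in the DNBCAT and 140.0, 41.8 and 136 TPM in the mCherry left otocysts, and 61L and 50L were lowest. Some other hypoxia and glycolysis genes were high in 60L, where DDIT4 had 112 TPM and PFKFB3 23.3 TPM, against at most 74.2 and 10.9 TPM in the other 5. SLC16A3, a lactate transporter, was also highest in 60L (49.4 TPM) and lowest in 61L (18.9 TPM). Members of that list went other ways in CPM, with CA9 highest in 62L, ALDOC in 52L and PGAM1 in 51L. P4HA1, also of that list, did have the ends of the order above, highest in 60L and lowest in 51L. ANXA2 was at 75.5, 26.5 and 24.0 TPM in the DNBCAT and 19.8, 26.1 and 11.3 TPM in the mCherry left otocysts. In 50L the keratin gene KRT7 (101 TPM) and TFAP2C (13.5 TPM), a factor of surface ectoderm, were high as well, against at most 60.9 and 5.87 TPM in the other 5. Of other epithelial genes, S100A11 was highest in 50L in CPM, CDH1 and CLDN3 in 60L, GJA1 in 51L, GJB6 in 61L and KRT24 in 62L. The summed level of the periotic mesenchyme markers was also highest in 50L. Of these markers, DCN, MMP2, COL1A2 and COL14A1 were highest in 50L in CPM. LUM, CXCL12 and ACTA2 were highest in 51L, ENG in 52L and THY1 in 62L. The part of other cell types in these differences was not tested. PCNA was highest in 51L (997 TPM) and, in CPM, lowest in 60L, so the ends of the order were reversed. Its transcript, of 1477 bases, is in the shortest length class, which was also high in 51L and low in 60L. In CPM, the cell cycle genes CDK1, CCNB1 and RRM2 were highest in 51L too, whereas MCM2, MCM3 and MCM4 were lowest there. MCM2 and MCM6 were among the named genes with the smallest ratios.

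**Figure D4:**
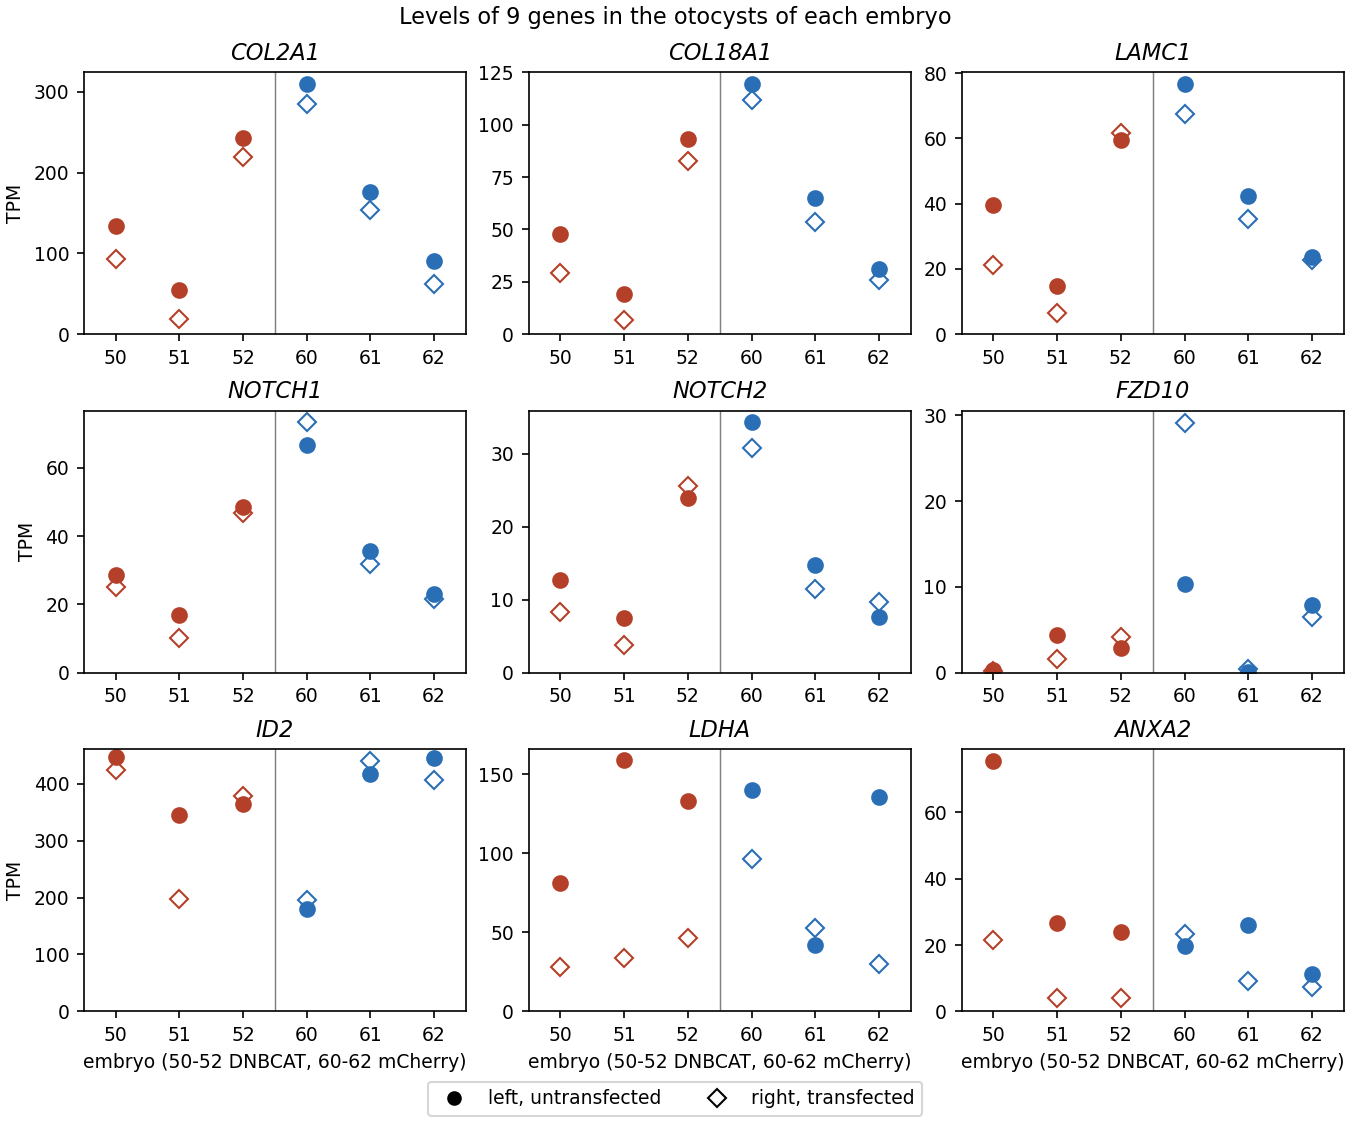
TPM of 9 genes in the untransfected left (filled circles) and transfected right (open diamonds) otocyst of each embryo, with DNBCAT embryos (50 to 52, red) left of the grey line and mCherry embryos (60 to 62, blue) right of it. COL2A1, COL18A1, LAMC1, NOTCH1 and NOTCH2 were highest in embryo 60 and lowest in embryo 51 on both sides, and ID2 was lowest in embryo 60 on both sides.

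Whether untreated otocysts differed between the cohorts was tested over 19647 transcripts with the quasi-likelihood test of edgeR, with p-values adjusted by the method of Benjamini and Hochberg. At an adjusted p under 0.05, 0 transcripts (0%) were called, 0 higher and 0 lower in the DNBCAT left otocysts, and 454 (2.31%) had an unadjusted p under 0.05. DESeq2's Wald test called 24 higher and 19 lower, 43 in all (0.219%). Nothing in the labels or methods says whether the 2 cohorts were electroporated, dissected or sequenced together, so the cohort and any shared batch cannot be told apart. Of the 180 listed genes tested, 74 were higher and 106 lower in the DNBCAT left otocysts. Their median log2 fold change was -0.07, against -0.01 over all transcripts tested. Without an adjustment, 12 of the 180 had a p under 0.05, 2 higher and 10 lower, while 1.07% of all transcripts were higher and 1.24% lower at that p. Of all transcripts paired with a name, 36 of 814 had such a p. Of the 181 listed genes, TPM did not overlap between the cohorts for 19, 5 higher and 14 lower, where 7.86% of all transcripts did not overlap, 3.10% higher and 4.76% lower.

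Over all transcripts tested, 9450 were higher and 10197 lower in the DNBCAT left otocysts. By list, axon guidance genes were lower for 12 of 14 (median log2 fold change -0.23), Wnt receptors for 8 of 10 (-0.18) and Wnt intracellular components for 8 of 10 (-0.15). Cell cycle genes were higher for 11 of 13 (0.06) and immediate early and stress genes for 7 of 9 (0.09). Of these 5 lists, axon guidance and Wnt intracellular components had 1 member each with an unadjusted p under 0.05 and the others 0, and no list had a member with an adjusted p under 0.05 in edgeR's test. Axon guidance transcripts were long (median 3528 bases, against 2223 over all transcripts tested), and the part of length in these directions was not tested. Of the Wnt genes, NOTUM was at 28.3, 40.1 and 41.2 TPM in the DNBCAT left otocysts and 42.3, 65.8 and 62.6 TPM in the mCherry left otocysts, with no overlap. The log2 fold change of NOTUM was -0.59 with an SE of 0.26 (edgeR adjusted p = 0.9999). DKK1 and FZD9 did not overlap between the cohorts either, with log2 fold changes of -0.78 (SE 0.40) and -0.64 (SE 0.32). Nor did WNT2B and CSNK1E, with log2 fold changes of -0.16 (SE 0.10) and -0.42 (SE 0.17). CTNNB1 overlapped between the cohorts, with a log2 fold change of -0.09 (SE 0.08).

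The named genes with the smallest unadjusted p were then read one by one, each with an adjusted p of 0.9999 in edgeR's test. SMPD3 (ENSGALT00000074830.2), a sphingomyelinase, was at 19.1, 12.5 and 16.2 TPM in the DNBCAT left otocysts and 28.7, 30.3 and 22.4 TPM in the mCherry left otocysts. The cohorts did not overlap, the means were 15.96 ± 3.30 and 27.1 ± 4.22 TPM (SD, n = 3 each), and the log2 fold change was -0.71 (SE 0.15). Its right otocysts had 8.05, 2.48 and 10.2 TPM in the DNBCAT embryos and 24.1, 28.3 and 14.1 TPM in the mCherry embryos. ALDH1A3 (ENSGALT00000078438.3) was at 65.2, 35.7 and 39.1 TPM in the DNBCAT and 108, 118 and 55.5 TPM in the mCherry left otocysts. 50L was above 62L, so the cohorts overlapped, and the log2 fold change was -0.94 (SE 0.31). TLX1 was at 1.86, 0.837 and 1.36 TPM in the DNBCAT and 2.85, 4.16 and 2.63 TPM in the mCherry left otocysts without overlap, with a log2 fold change of -1.20 (SE 0.40) at low levels. S100A1, a calcium-binding protein gene, was at 265, 188 and 252 TPM in the DNBCAT and 424, 353 and 262 TPM in the mCherry left otocysts, with a log2 fold change of -0.53 (SE 0.16).

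HES1, the Notch effector, had values of 44.7, 53.3 and 55.2 TPM in the DNBCAT and 46.4, 32.3 and 30.2 TPM in the mCherry left otocysts, where 60L lay within the range of the DNBCAT cohort, and its log2 fold change was 0.55 (SE 0.19). NDST1, an enzyme of heparan sulphate synthesis, and NMRAL1 were the others of the 10 that were higher in the DNBCAT left otocysts, with log2 fold changes of 0.77 (SE 0.23) and 0.39 (SE 0.12). IL1RAP, a receptor subunit of interleukin 1, PARP4 and NAV2 were lower without overlap, with log2 fold changes of -0.33 (SE 0.09), -0.66 (SE 0.20) and -0.41 (SE 0.13). Among the listed genes with an unadjusted p under 0.05 were also LFNG (-0.40, SE 0.15), SOX10 (-0.33, SE 0.14), NHLH1 (-0.65, SE 0.23), EBF3 (-0.27, SE 0.11), UNC5B (-0.48, SE 0.17), LAMA4 (-0.36, SE 0.14), CSNK1E (-0.42, SE 0.17), TBX2 (-0.40, SE 0.17) and SMOC2 (0.40, SE 0.16). NHLH1, a bHLH factor of early neurons, was at 20.7, 12.3 and 15.6 TPM in the DNBCAT and 21.0, 27.9 and 28.9 TPM in the mCherry left otocysts, where 20.7 in 50L and 21.0 in 60L nearly met. OTOP1 had a log2 fold change of -0.75 (SE 0.33) and overlapped. A p above the threshold does not show that the cohorts were alike.

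**Figure D5:**
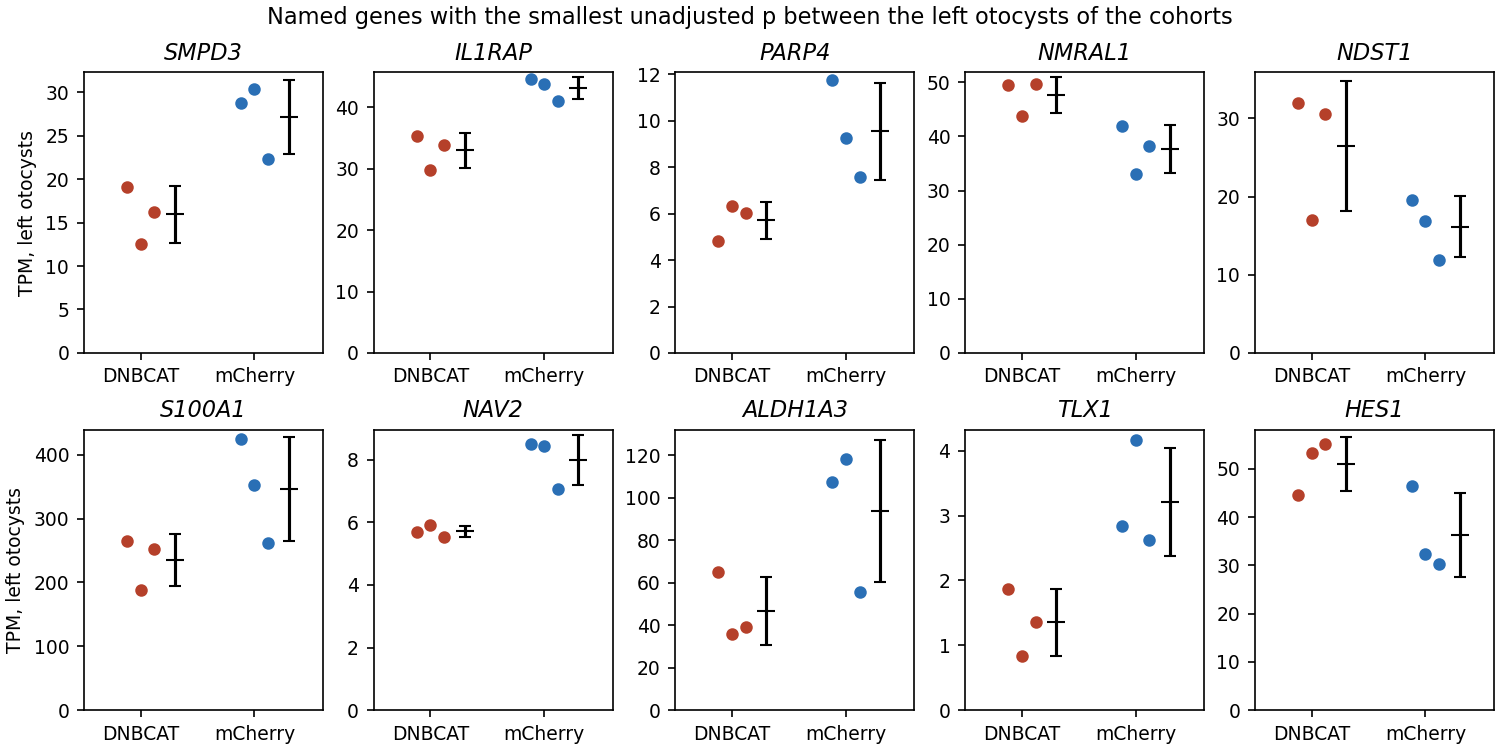
TPM of the 10 named genes with the smallest unadjusted p in each left otocyst of the DNBCAT (red) and mCherry (blue) embryos, with the mean and SD (n = 3) in black beside the points. SMPD3, IL1RAP, PARP4, NMRAL1, NAV2 and TLX1 did not overlap between the cohorts, and none of the 10 had an adjusted p under 0.05 in edgeR's test (SMPD3 had 0.0476 in DESeq2's Wald test).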

How the data were processed

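Per the labels and the methods of the study, total RNA of each otocyst (RNA integrity number of at least 9) was made into cDNA with SMART-Seq v4 and 10 cycles of PCR, converted with Nextera XT and sequenced as 43 bp paired ends on a NextSeq 500. The authors quantified the reads with Kallisto against the chicken transcriptome (GRCg6a per the submitters' processing notes) and deposited, per transcript, estimated counts that are not normalized and TPM that are scaled for length and depth. TPM of a library sum to 1000000, so a few abundant transcripts can lower every other TPM. Kallisto splits a read that fits more than 1 transcript by estimation. Total estimated counts of the 6 left libraries were between 13157404 and 15243921, and no 2 libraries held identical counts.

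Here the estimated counts were rounded and tested with edgeR 4.0.16 in R 4.3.3 (TMM, quasi-likelihood test, two-sided, Benjamini-Hochberg adjustment), on the 6 left otocysts with the cohort as the only term. A transcript entered if 47% or more of the libraries held 5 or more of its estimated counts. Fold changes are DNBCAT left over mCherry left. The share of variation used the variance stabilizing transformation of DESeq2 1.42.0, and distances used log2 CPM with a prior count of 2. In ratios, values under 3 counts were set to 3 counts. The p-values of edgeR weigh the difference between the cohorts against the spread between the 3 embryos within each, estimated with information shared across transcripts. Each embryo gives 1 left otocyst, so the cohorts are not paired. Left and right otocysts of a number come from the same embryo, and limma 3.58.1 estimated a correlation of 0.485 between them over all 12 libraries. The steps were checked on simulated data.

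Names came from the study's tables, and 3 of the 827 transcripts were matched without the version of their identifier. Named genes were those of the lists, those with the 15 largest and 10 smallest ratios among named transcripts with a median of at least 50 counts, the 10 with the highest median TPM and the 10 with the smallest p. The members and lists were chosen with earlier results of these data known. The alternatives were other normalizations, tests, filters, pseudocounts (1 and 0.1), a fit of all 12 libraries, the embryo as a block, and leaving out each left otocyst. Distances without embryo 51 or 60 were added after seeing the data. Tables and plots were made with Python 3.11.15, pandas 2.3.3 and matplotlib 3.10.9. Sequences were not used here.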

Additional observations from a re-analysis of the deposited data

Results flagged for a closer look

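For 253 measures read over the 6 left otocysts (levels of genes, list medians, library totals and PC scores), the gap of the highest or lowest otocyst to the next was examined. It was over 0.625 of the range for 17. About 1 in 20 sets of 6 normally distributed values would pass this cut-off. These measures overlap and need not be normally distributed, so the count of 17 was not tested against that rate. The otocyst that stood apart was 50L for 7, 60L for 6, 61L for 3 and 52L for 1.

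50L was highest for TFAP2C (13.5 TPM, with 50R at 8.77 TPM), WNT6 (4.58 TPM), ANXA2 (75.5 TPM), KRT7 (101 TPM), MSX1 (255 TPM), SOSTDC1 (10.3 TPM) and LHX5 (0.292 TPM, on 3 counts). The right otocyst of that embryo, which received DNBCAT, was lower than 50L for each of these 7 genes. For TFAP2C and LHX5 it was still the highest of the right otocysts. 60L was highest for DDIT4 (112 TPM, with 60R at 87.4 TPM), PFKFB3 (23.3 TPM, with 60R at 16.2 TPM), BMP4 (22.598 TPM), FGF10 (83.4 TPM), TCF7 (7.84 TPM) and the median of the hypoxia and glycolysis list (112 TPM), and 60R was the highest right otocyst for these 5 genes. Set against 60L, 60R was lower for DDIT4, PFKFB3, FGF10 and TCF7 and higher for BMP4 (25.6 TPM). 61L was highest for DPYSL4 (11.6 TPM, with 61R at 11.8 TPM), CDC20 (429 TPM) and the median of the Wnt antagonists (65.8 TPM). That median is the value of NOTUM in 61L. The median of the hypoxia and glycolysis list in 60L is the value of DDIT4, so the same measurement was flagged as a gene and as a list. 52L was highest for FGFR4 (10.97 TPM). Their causes were not tested.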

How the results depend on the processing

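The count of transcripts called between the cohorts was 0 higher and 0 lower in edgeR's test with DESeq2's size factors, without a filter, with at least 10 estimated counts in every library, with all 12 libraries in 4 groups, and with each left otocyst left out in turn, and in limma on log2(TPM + 1) and log2(TPM + 0.1). With the embryo as a random replicate block over all 12 libraries (limma voom), it was also 0 higher and 0 lower. DESeq2's Wald test in its place gave 24 higher and 19 lower. SMPD3 was the only one of 19 named genes with an adjusted p under 0.05 under any alternative, 0.0476 with DESeq2's Wald test, and its log2 fold change was between -0.84 and -0.62 over all alternatives. None of these 19 changed sign under any of them. The share of the cohort was between 16.1% and 18.4% with other transformations or transcripts, and between 18.3% and 28.6% with an otocyst left out, with exact permutation p-values between 0.3 and 1. Shares with an otocyst left out are not on the same scale as those over all left otocysts. The median distances moved with the scale. They were 0.588 within a cohort, 0.570 between cohorts and 0.489 within an embryo on log2(TPM + 1), 0.496, 0.4698 and 0.398 with at least 10 counts in every library, and 1.503, 1.47 and 1.37 with a prior count of 0.5. Without a filter they were 1.20 within a cohort and 1.11 within an embryo. The distance within an embryo had the lowest median under each of these scales. On TPM in place of CPM the ratios of the steadiest genes were larger, such as 1.24 for HSP90B1. Levels near 1 TPM rest on few counts where the transcript is short, such as WNT6 (1358 bases, a median of 14.5 counts at 1.30 TPM). Long transcripts have more, such as FAT1 (14934 bases, a median of 73.3 counts at 0.493 TPM). The difference that could be detected near 1 TPM was not measured.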

Other observations

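Of the 15 named transcripts with the largest ratios, 10 were at or near 0 in at least 1 left otocyst while others had counts, among them FZD10. FOXJ2 (ENSGALT00000095087.1) was at 0.00262, near 0 and 10.98 TPM in the DNBCAT left otocysts and 16.6, 4.07 and 5.41 TPM in the mCherry left otocysts. KBTBD8 was at 0, 6.68 and 1.46 TPM in the DNBCAT and 0.269, 8.69 and 7.84 TPM in the mCherry left otocysts. PHACTR2 was at 7.99, near 0 and 7.22 TPM in the DNBCAT and 3.80, 3.76 and near 0 TPM in the mCherry left otocysts. The right otocyst did not always follow, since KBTBD8 was at 3.40 TPM in 50R and FOXJ2 at 0.139 TPM in 52R. FAT1, CCDC88A, ADAMTSL1, SETBP1, DISC1 and MAP7 had highest values between 1.58 and 5.32 TPM. Reads on other transcripts of these genes are not included, so the level of a gene cannot be read from these values.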
